A study of Mus musculus with 6 samples.

Results

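The oligoadenylate synthetase family was followed through 8 mouse genes, Oas1a, Oas1b, Oas1c, Oas1g, Oas2, Oas3, Oasl1 and Oasl2, in duodenum of mice with and without Atg7. A member was any gene of this list to which the annotation of the array assigned a probe set of its own, and 7 of the 8 had exactly 1 such probe set among the 19938 genes compared. Oas1g was reached only by a probe set that it shares with Oas1a, which is given separately. Total RNA came from duodenum, labelled as normal tissue, of C57Bl6 mice, with 3 samples of genotype Apc+/- and 3 of genotype Apc+/-Atg7-/-, and was hybridised to 1 Affymetrix whole-transcript array per sample. All 6 samples carried the same heterozygous Apc genotype, so the comparison concerns Atg7, an enzyme needed to build autophagosomes, on a background that is prone to intestinal tumours. The sources used here do not state the age of the mice, the allele of Apc or Atg7, or the cells in which Atg7 was lost.

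Oligoadenylate synthetases are sensors of double-stranded RNA that are induced by interferons. On binding such RNA, the active enzymes of the family join ATP into short oligoadenylates, which act as second messengers of the antiviral response. Oas1a and Oas1g are active synthetases, Oas2 and Oas3 repeat the synthetase domain within one chain, and the Oasl proteins carry ubiquitin-like domains behind theirs. Oasl2 has kept synthetase activity, whereas Oasl1 is known for holding back translation of Irf7, the transcription factor that amplifies interferon production. Oas1b is the flavivirus resistance gene of mice, and the C57BL/6 strain carries a truncated form. Interferon induces such genes through the interferon-stimulated response element, a paired GAAA repeat that is bound by a complex that contains Stat2 and Irf9.

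The letters around the starts of the genes are shown first, and whether they relate to the genotype differences was not tested. RefSeq promoter windows of assembly GRCm38.p6, each of 300 bases, were at hand for 6 members, namely Oas1a, Oas1c, Oas1g, Oas3, Oasl1 and Oasl2. Each was searched on both strands for the response element core, written as GAAA, any 2 bases and GAAA, with overlapping matches allowed. The core was present in 4 of the 6 windows, those of Oas1a, Oas1g, Oas3 and Oas1c, and in 3.44% of all 32851 promoter windows. For Oas1 copies outside the family list (Oas1d, Oas1e, Oas1f and Oas1h) 2 windows were at hand, and 0 held the core. The following lines give the stretch around the matches on the strand of each gene, with the matched letters in capitals.
Oas1a, chr5:120907526-120907557, minus strand: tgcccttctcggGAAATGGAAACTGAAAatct
Oas1g, chr5:120887614-120887643, minus strand: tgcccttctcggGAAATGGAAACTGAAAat
Oas3, chr5:120777713-120777746, minus strand: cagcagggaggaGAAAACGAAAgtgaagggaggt
Oas1c, chr5:120812601-120812640, minus strand: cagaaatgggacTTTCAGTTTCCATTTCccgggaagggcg
Oas1c, same interval, plus strand: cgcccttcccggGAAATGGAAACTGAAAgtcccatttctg

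In Oas1a and Oas1g, 2 overlapping matches formed the same run of 16 letters, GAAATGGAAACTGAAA, just before the start from which the window is counted. The run lay at bases -20 to -5 in Oas1a and at -18 to -3 in Oas1g, counted back from that start. The gene interval of Oas1a in the RefSeq gene table reaches further out than the start of its window and takes in 15 of the 16 letters, whereas the runs of Oas1g, Oas3 and Oas1c lie outside their own gene intervals. The 2 promoter windows were 85.3% identical over 306 aligned columns, whereas every other pair among the 6 windows was between 41.9% and 48.5% identical. The window of Oas1c held the identical run on the opposite strand, at chr5:120812613-120812628. That run lies between Oas1c and Oas1b, whose annotated ends are 94 bases apart, and the run ends 6 bases before the lower end of Oas1b. The window of Oas1c therefore also covers the sequence next to Oas1b, for which no promoter entry or strand was given. Across all windows the run of 16 letters occurred in 7, which belong to Oas1a, Oas1g, Oas1c and the interferon-inducible apolipoprotein L genes Apol9a and Apol9b. The gamma-activated site, written as TTC, any 3 bases and GAA, was found in 8.30% of all windows and, among the members, in that of Oas1a only, at base -98. A match is a property of the letters and was not tested for binding.

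The 250 bases before the window start of the 2 members that passed the genotype test show a window with the core and a window without it, again with matches in capitals. Of these bases, the last 19 of Oas1a and the last 97 of Oasl1 fall inside the wider gene intervals of the gene table.
Oas1a, chr5:120907526-120907775, minus strand: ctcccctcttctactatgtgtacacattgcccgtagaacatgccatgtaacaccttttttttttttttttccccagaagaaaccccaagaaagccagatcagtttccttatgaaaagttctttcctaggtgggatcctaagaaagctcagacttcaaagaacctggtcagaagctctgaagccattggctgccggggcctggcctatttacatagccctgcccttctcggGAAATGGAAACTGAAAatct
Oasl1, chr5:114922990-114923239, plus strand: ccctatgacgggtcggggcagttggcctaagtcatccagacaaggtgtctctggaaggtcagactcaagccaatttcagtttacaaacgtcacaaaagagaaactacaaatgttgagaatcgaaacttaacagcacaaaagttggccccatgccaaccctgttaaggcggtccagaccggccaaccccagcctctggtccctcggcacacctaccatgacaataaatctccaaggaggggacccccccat

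Signals are given as log2 values, on which a difference of 1 is a doubling, and differences are Apc+/-Atg7-/- minus Apc+/-. Array medians ran from 6.43 to 6.56, and the 6 arrays resembled each other closely (r = 0.989 to 0.994 between pairs, across probe sets). The Atg7 probe set read 7.05, 7.17 and 7.27 in Apc+/- and 6.46, 6.65 and 6.78 in Apc+/-Atg7-/- duodenum, so the genotypes did not overlap, at a difference of -0.53 (SE 0.11) that did not pass limma over all genes (adjusted p = 0.242). Xist and the Y-linked Eif2s3y marked Apc+/-Atg7-/- replicate 1 as the only male (Xist 4.58 against 10.1 to 10.3 in the others). Epithelial markers were bright in both genotypes, with a mean over 8 genes of 10.9 to 11.1 in every array, and the 5 duodenal markers, Pdx1 among them, averaged 7.81 to 8.11. With 3 arrays in each genotype the precision is limited by their number.

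The family was higher in Apc+/-Atg7-/- duodenum. All 7 members with a probe set of their own had a positive difference (43.2% of all genes did), with a median of 0.74 against -0.02 over all genes, and 2 of them, Oasl1 and Oas1a, rose past an adjusted p of 0.05 in limma. Over all genes the share that rose at this threshold was 0.0702% (14 of 19938), and 0 members fell (0.0401% of all genes). In 5 of the 7, namely Oas1a, Oas2, Oas3, Oasl1 and Oasl2, every Apc+/-Atg7-/- array lay above every Apc+/- array, which was so for 4.81% of all genes. Oas1b and Oas1c overlapped between genotypes. Leaving out the male array took both calls away, and 0 of all genes then rose past the threshold. The differences of Oasl1 and Oas1a were then 1.12 and 0.82, and the family median was 0.65.

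**Figure D1:**
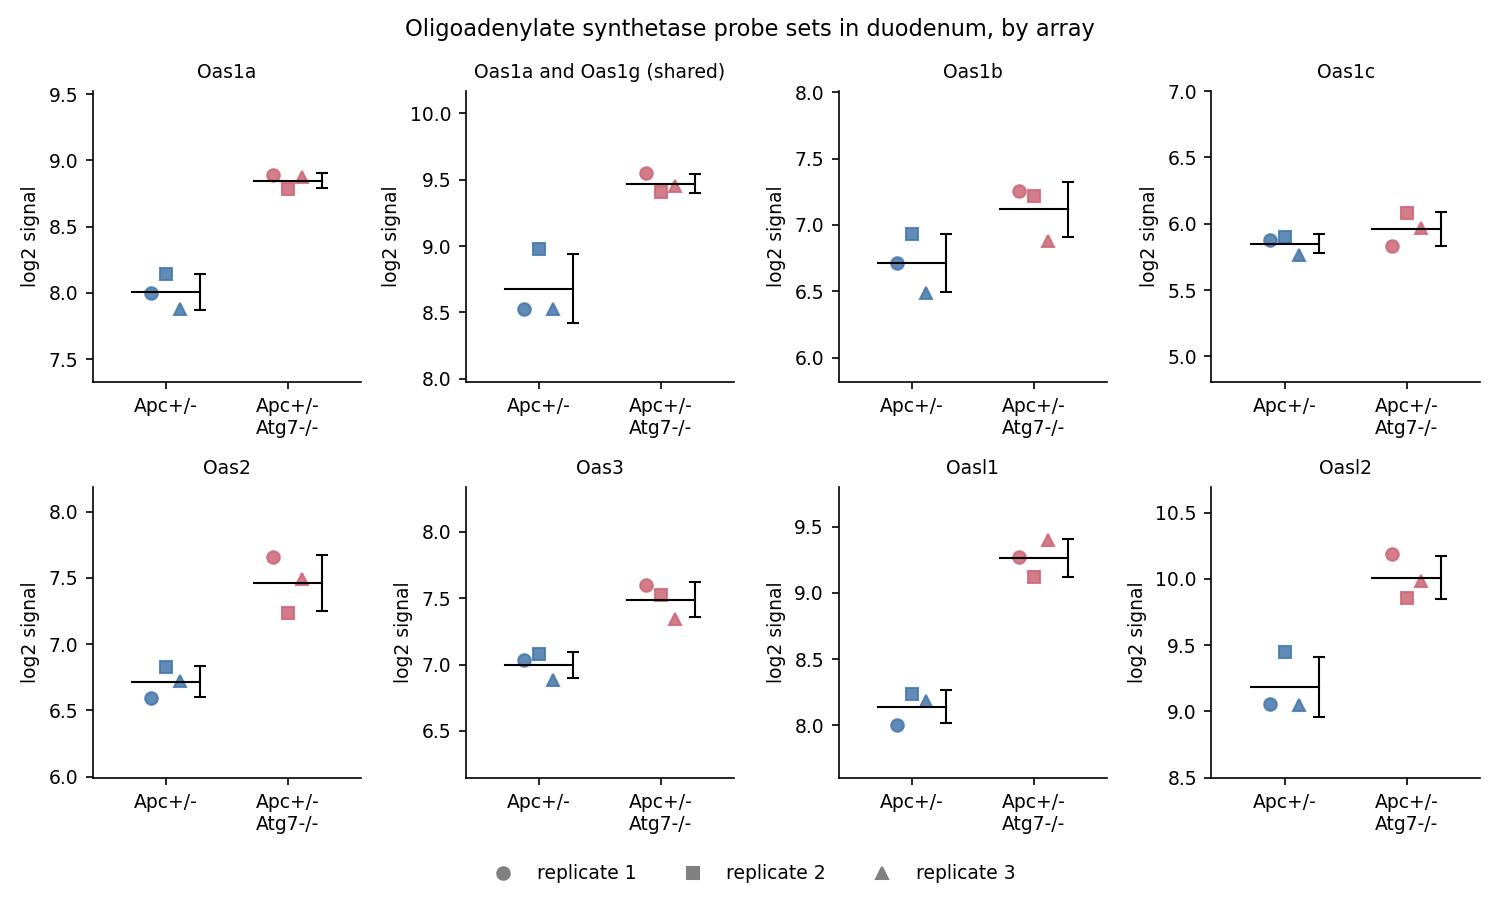
Each panel plots the log2 signal of 1 probe set in the 3 Apc+/- (blue) and 3 Apc+/-Atg7-/- (red) arrays, with marker shape giving the replicate, the line the mean and the bar the SD. All panels span the same log2 range, and the genotypes are apart everywhere except in Oas1b and Oas1c.

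Oas1a, an active short-form synthetase, read 8.002, 8.14 and 7.88 in Apc+/- replicates 1 to 3 and 8.89, 8.78 and 8.87 in Apc+/-Atg7-/- replicates 1 to 3. The 3 arrays without Atg7 lay within 0.105 of each other and clear of the controls. The means were 8.01 ± 0.13 and 8.85 ± 0.06 (SD, n = 3), and Oas1a rose by 0.84 (SE 0.10, limma adjusted p = 0.0137), which is 1.79-fold with a 95% interval of 1.54 to 2.08. With 1 array left out the call was lost in 4 cases, at an adjusted p of 0.0532 and 0.0615 when Apc+/- replicates 1 and 3 were omitted and of 0.0755 and 0.0695 when Apc+/-Atg7-/- replicates 1 and 3 were, while the difference stayed between 0.78 and 0.91.

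The probe set shared by Oas1a and Oas1g cannot separate these near-identical copies. It read 8.53, 8.98 and 8.53 in Apc+/- and 9.55, 9.41 and 9.45 in Apc+/-Atg7-/- duodenum. Apc+/- replicate 2 stood above the other controls, yet below all 3 arrays without Atg7. Its difference of 0.79 (SE 0.13) was close in size to that of Oas1a alone, and it did not pass limma when fitted over all 28853 probe sets (adjusted p = 0.0992). Of those probe sets 0.0797% rose past 0.05 and 5.07% had genotypes apart in the higher direction. No value was available for Oas1g by itself.

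Oas1b, of which C57BL/6 mice make only a truncated form and which RefSeq lists as a transcribed pseudogene, read 6.71, 6.93 and 6.49 in Apc+/- and 7.25, 7.22 and 6.88 in Apc+/-Atg7-/- duodenum. Apc+/-Atg7-/- replicate 3 fell just below Apc+/- replicate 2, so the genotypes overlapped. The difference was 0.41 (SE 0.14, adjusted p = 0.841 in limma), with a 95% interval from 0.10 to 0.71 before adjustment.

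Oas1c, the copy next to Oas1b, read 5.88, 5.90 and 5.77 in Apc+/- and 5.83, 6.08 and 5.97 in Apc+/-Atg7-/- duodenum. Its signals lay below the array medians and the genotypes overlapped. The difference was 0.11 (SE 0.10, adjusted p = 0.974 in limma), and its 95% interval of -0.11 to 0.33 lies below the intervals of Oas1a, Oas2, Oasl1 and Oasl2. It was 0.05 without Apc+/-Atg7-/- replicate 2, 0.07 without Apc+/- replicate 3 and 0.18 without Apc+/-Atg7-/- replicate 1.

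The other 4 copies of Oas1 on the array, Oas1d, Oas1e, Oas1f and Oas1h, were dim and had differences slightly below 0, from -0.09 to -0.02. Of these, 0 passed limma at an adjusted or an unadjusted p under 0.05, and whether their response differed from that of the members was not tested. The rows of Oas1h and Oas1f, the dimmest and brightest of the 4, stood at the 4.67th and 18.9th percentile of signal over all genes. Oas1f averaged 5.29 ± 0.06 and 5.27 ± 0.17, Oas1h 3.92 ± 0.13 and 3.90 ± 0.14, and Oas1d, a copy known from oocytes, 4.38 ± 0.17 and 4.33 ± 0.27 in Apc+/- and Apc+/-Atg7-/- duodenum (SD, n = 3). Oas1e varied far more between arrays of a genotype than between genotypes. It read 5.69, 5.19 and 4.63 in Apc+/- and 5.70, 4.93 and 4.61 in Apc+/-Atg7-/- replicates 1 to 3, a spread of 1.06 and 1.09 within the genotypes, against a difference of -0.09 (SE 0.30) with a 95% interval of -0.75 to 0.57.

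Oas2 read 6.60, 6.83 and 6.72 in Apc+/- and 7.66, 7.23 and 7.49 in Apc+/-Atg7-/- duodenum. Its genotypes did not overlap, and Apc+/-Atg7-/- replicate 2 was the lowest of its group. The difference of 0.74 (SE 0.12), a 1.68-fold higher level with a 95% interval of 1.39 to 2.02, did not pass (adjusted p = 0.0910 in limma). It passed under trended, robust moderation (0.0407) and without Apc+/-Atg7-/- replicate 2 (0.0427).

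Oas3, the longest synthetase, read 7.03, 7.08 and 6.89 in Apc+/- and 7.60, 7.52 and 7.34 in Apc+/-Atg7-/- duodenum. The genotypes were again apart, by a smaller margin. The difference was 0.49 (SE 0.10, adjusted p = 0.255 in limma), 1.40-fold with a 95% interval of 1.20 to 1.64.

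Oasl1 had the largest difference in the family. It read 8.01, 8.24 and 8.18 in Apc+/- and 9.27, 9.12 and 9.40 in Apc+/-Atg7-/- duodenum. The lowest array without Atg7 stood 0.879 above the highest control, and the SDs were 0.12 and 0.14 around means of 8.14 and 9.26. Oasl1 rose by 1.12 (SE 0.11, adjusted p = 0.00665 in limma), which is 2.17-fold with a 95% interval of 1.84 to 2.56, and ranked 3 of 19938 genes by p and 12 by difference. Without Apc+/-Atg7-/- replicate 1 the difference was 1.12 and the adjusted p 0.0517, and without variance moderation the adjusted p was 0.56.

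Oasl2, its neighbour on the chromosome, read 9.06, 9.45 and 9.05 in Apc+/- and 10.18, 9.86 and 9.99 in Apc+/-Atg7-/- duodenum. The genotypes did not overlap, although Apc+/- replicate 2 came within 0.412 of the lowest array without Atg7. The difference of 0.83 (SE 0.13), 1.77-fold with a 95% interval of 1.44 to 2.17, did not pass limma (adjusted p = 0.0821). It passed without Apc+/- replicate 2 (0.96, adjusted p = 0.0440) and under trended, robust moderation (adjusted p = 0.0248).

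**Figure D2:**
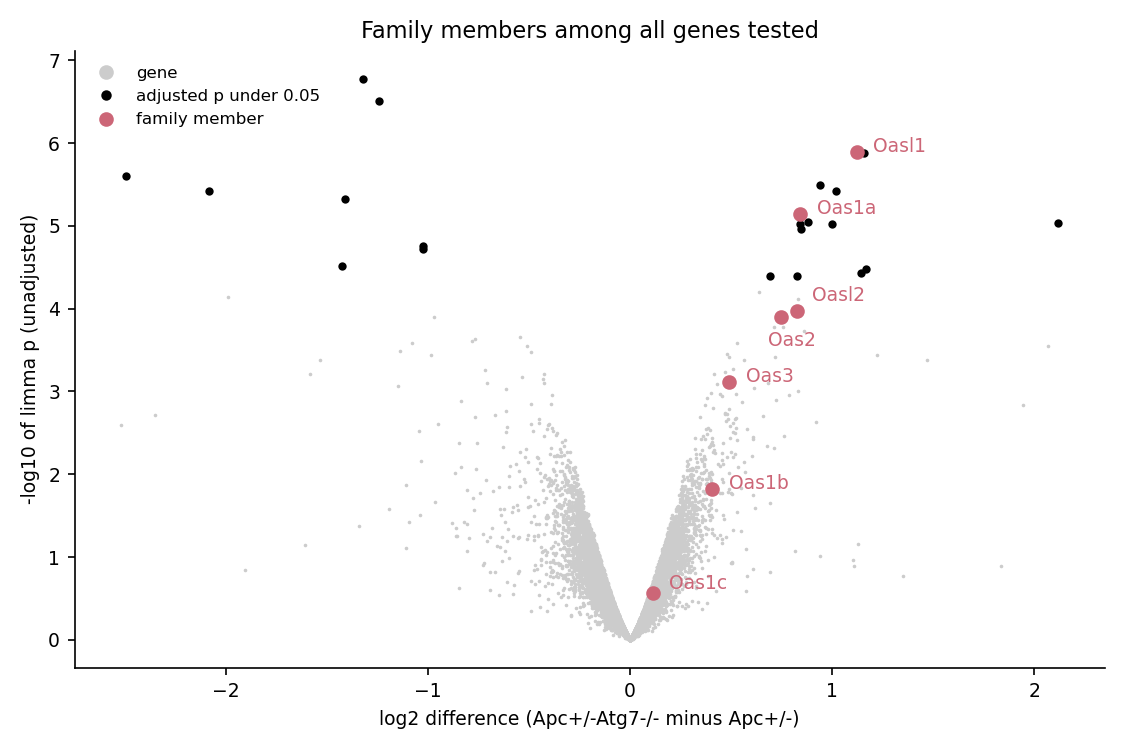
Each point is 1 of the 19938 genes, with the log2 difference between genotypes on the x axis and the -log10 of limma's unadjusted p on the y axis, black for an adjusted p under 0.05 and red for the 7 members. Oasl1 and Oas1a lie among the black points, Oasl2, Oas2 and Oas3 follow below them, and Oas1c sits near the middle.

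On chromosome 5 the members whose genotypes were apart lay at the Oasl pair and towards both sides of the larger Oas cluster, and all the copies between Oas3 and Oas1g overlapped. Oasl2 and Oasl1 (chr5:114896926-114937911, GRCm38.p6) form a pair of 40.99 kb, and the other 10 genes, from Oas2 to Oas1d, fill 191.3 kb at chr5:120730333-120921648, 5.79 Mb further along. In the larger cluster the order was Oas2 (0.74), Oas3 (0.49), Oas1e (-0.09), Oas1c (0.11), Oas1b (0.41), Oas1f (-0.03), Oas1h (-0.02), Oas1g (shared row only), Oas1a (0.84) and Oas1d (-0.05), each with its log2 difference. Oas1a thus had the highest value of this cluster, and Oas1d, 7273 bases away, had one just below 0. Of 11 measured genes beside the 2 clusters, 0 passed limma at an adjusted or an unadjusted p under 0.05, and their differences ran from -0.19 to 0.13 with a median of 0.00. Dtx1, a Notch regulator next to Oas2, had the smallest p of these (-0.19, SE 0.10, adjusted p = 0.950), followed by Acads, a mitochondrial dehydrogenase (0.13, SE 0.13, adjusted p = 0.975).

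**Figure D3:**
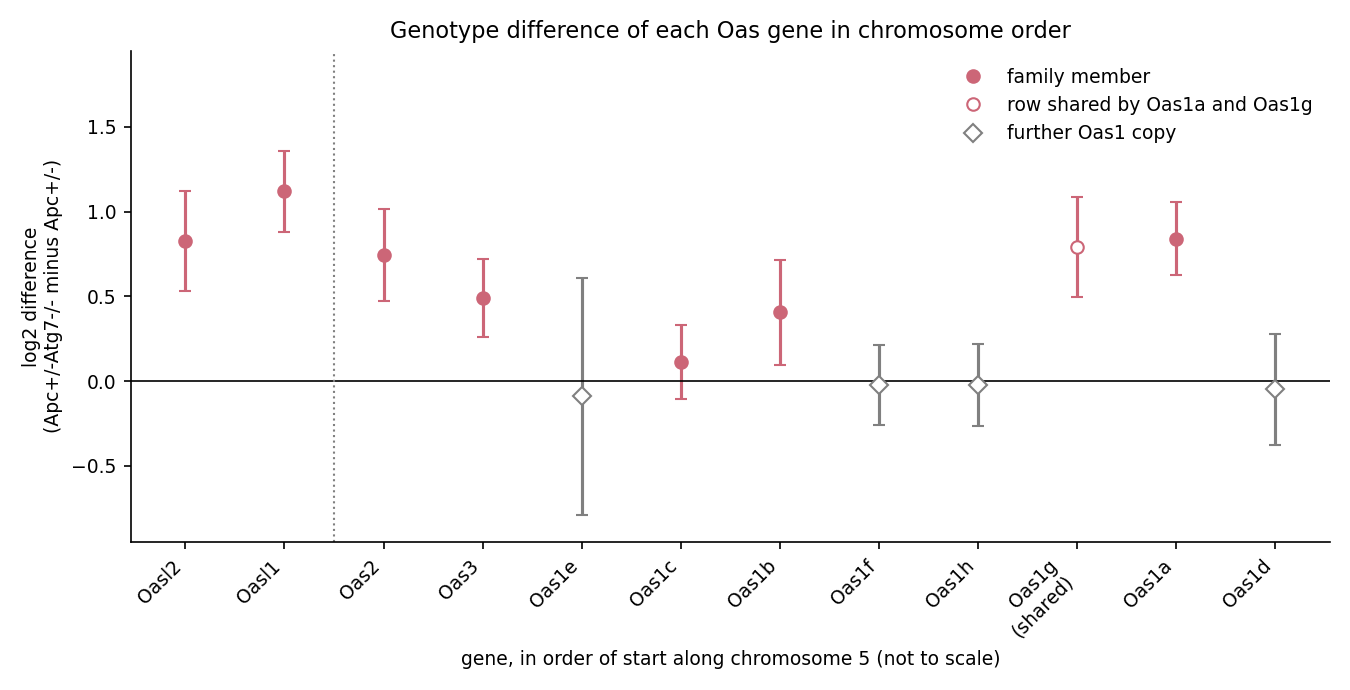
Points give the log2 difference between genotypes for each Oas gene in order along chromosome 5, with limma's unadjusted 95% interval as bars. The dotted line separates the Oasl pair from the larger cluster, the open circle is the row shared by Oas1a and Oas1g, and the 4 grey diamonds of further Oas1 copies lie at or just below 0.

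The sizes of response were set against each other within arrays for 5 pairs of rows, which compares changes and not levels. The signal of Oas1a minus that of Oas1c was 2.11 to 2.24 in the Apc+/- arrays and 2.70 to 3.06 in the Apc+/-Atg7-/- arrays, so Oas1a gained 0.73 on Oas1c with no overlap. Oas1a gained 0.44 on Oas1b, again without overlap. These 2 pairs reached the smallest p that 3 against 3 arrays allow in an exact two-sided permutation test (p = 0.1, adjusted over the 5 pairs 0.25). Oasl1 gained 0.29 on Oasl2 and Oas2 gained 0.25 on Oas3, both with overlapping genotypes (exact permutation p = 0.2 and 0.3, adjusted 0.333 and 0.375). The gain of Oas2 on Oas3 was 0.17 without Apc+/-Atg7-/- replicate 3, 0.18 without Apc+/- replicate 1 and 0.39 without Apc+/-Atg7-/- replicate 2. Oas1a and the row that it shares with Oas1g differed in response by 0.05 (exact permutation p = 0.8, adjusted 0.8). At this number of arrays no pair could pass.

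Within a genotype most members had the same array on top. Apc+/- replicate 2 was the highest of the 3 Apc+/- arrays for 7 of 7 members, against 39.5% of all genes. Apc+/-Atg7-/- replicate 1, the male, was the highest of its group for 5 of 7, against 29.1% of all genes, the exceptions being Oas1c and Oasl1. The lowest Apc+/- array was replicate 3 for 5 members and replicate 1 for 2 (26.1% and 49.2% of all genes). The lowest Apc+/-Atg7-/- array was replicate 1, 2 and 3 for 1, 4 and 2 members (38.5%, 30.7% and 30.8% of all genes). Over the 5 members with genotypes apart, each centred on its own Apc+/- mean, the mean deviation was -0.07, 0.14 and -0.07 in Apc+/- replicates 1 to 3 and 0.91, 0.69 and 0.81 in Apc+/-Atg7-/- replicates 1 to 3. These 5 were chosen by the same values, so the gap between genotypes in these means follows from the choice. The lowest single member in an array without Atg7 stood at 0.34 (Oas3 in replicate 3) and the highest in a control at 0.26 (Oasl2 in replicate 2).

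The genes whose pattern over the 6 arrays was nearest to the mean of the 7 members were looked for among 9963 brighter genes outside the family, by the root mean square distance of centred log2 values. Genes with only a provisional symbol (Gm numbers, Rik or LOC names) count among the 9963 but were passed over. The 8 nearest named genes were Samd9l (0.05), Xaf1 (0.08), Usp18 (0.11), Samhd1 (0.12), Phf11a (0.12), Rtp4 (0.12), Lgals3bp (0.12) and Epsti1 (0.13). The members themselves lay between 0.10 (Oas1a) and 0.29 (Oas1c). Each member is part of that mean and the 8 were picked as the nearest, so their distances cannot be compared directly. Samd9l, a restriction factor for poxviruses, read 9.40, 9.60 and 9.48 in Apc+/- and 10.23, 10.04 and 10.14 in Apc+/-Atg7-/- duodenum. It had Apc+/- replicate 2 and Apc+/-Atg7-/- replicate 1 on top of their groups, as most members did. Its difference was 0.64 (SE 0.10, adjusted p = 0.0546 in limma). Of the 8, Xaf1 (0.69, adjusted p = 0.0366) and Rtp4 (0.88, adjusted p = 0.0137) passed. Genotypes were apart in all 8. The search for nearness to this pattern favours that, the passing tests and the shared order of arrays, so none of these is separate support.

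**Figure D4:**
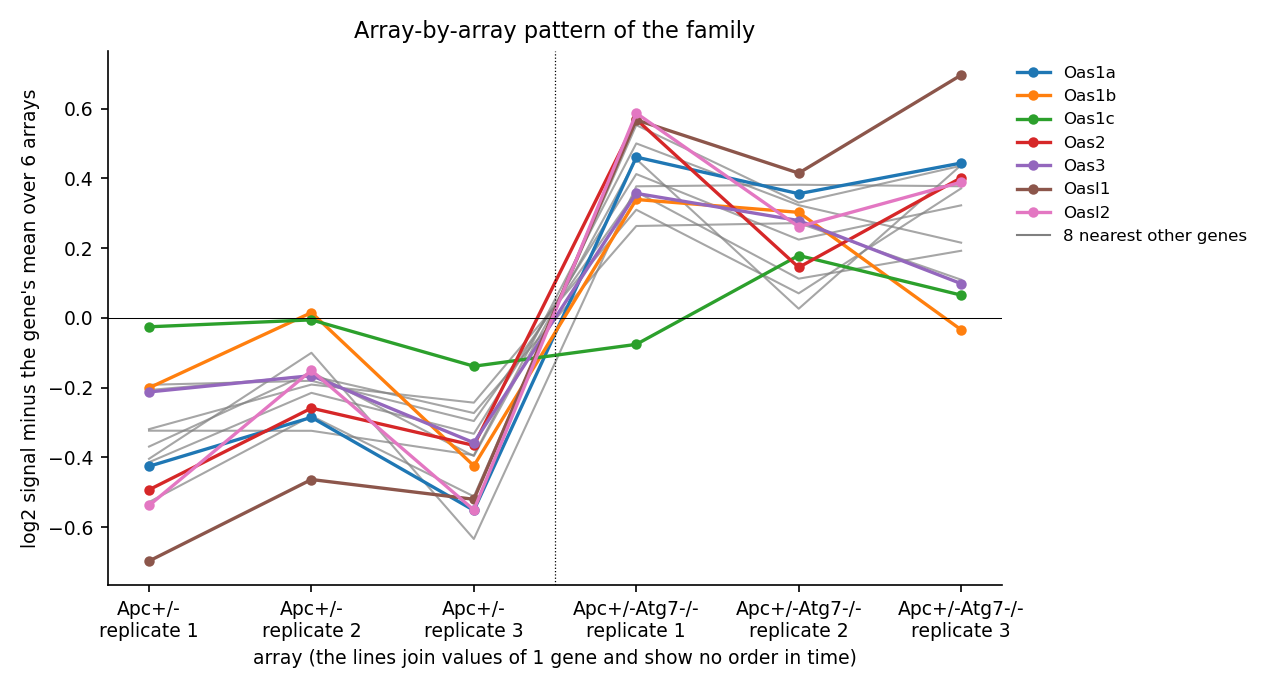
Lines join the log2 signal of 1 gene over the 6 arrays after subtraction of its own mean, coloured for the 7 members and grey for the 8 nearest other named genes. The coloured lines other than Oas1b and Oas1c lie below 0 in all Apc+/- arrays and above 0 in all Apc+/-Atg7-/- arrays.

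Other parts of the pathway were read through 5 lists, from interferon ligands to the partners of the oligoadenylates. Of 50 measured genes on these lists, 0 passed limma over all genes, 12 had an unadjusted p under 0.05 (5.11% of all genes did) and 14 had genotypes apart in the higher direction (4.81% of all genes). The list of double-stranded RNA sensors and effectors held most of them.

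Of the 10 measured sensors and effectors, 9 were higher, 8 with the genotypes apart and 8 at an unadjusted p under 0.05, with a median difference of 0.30 and 0 past the adjusted threshold in limma. Dhx58 (LGP2), a regulator of the RIG-I helicases, read 6.17, 6.39 and 6.17 in Apc+/- and 7.33, 6.87 and 7.02 in Apc+/-Atg7-/- duodenum. That is a gap of 0.484 between the groups and a difference of 0.83 (SE 0.13, adjusted p = 0.0615). Eif2ak2, the kinase PKR that halts translation on double-stranded RNA, differed by 0.48 (SE 0.09, adjusted p = 0.168). The smallest differences of the list were those of Mavs, the adaptor of the helicases (-0.11), and the endosomal receptor Tlr3 (0.13), both with overlapping genotypes.

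Among 23 measured genes of interferon signal transduction, 12 were higher and 11 lower, with a median of 0.00 and 0 past the adjusted threshold in limma (4 at an unadjusted p under 0.05). Usp18, the isopeptidase that damps the receptor, read 8.25, 8.55 and 8.02 in Apc+/- and 9.03 in each of the 3 Apc+/-Atg7-/- arrays, a difference of 0.76 (SE 0.13, adjusted p = 0.112). Stat2 differed by 0.42 (SE 0.08, adjusted p = 0.226). Irf7 read 7.88, 7.80 and 7.24 in Apc+/- and 8.32, 8.15 and 8.05 in Apc+/-Atg7-/- duodenum, a difference of 0.53 (SE 0.16, adjusted p = 0.774) between groups that did not overlap. Irf9, the DNA-binding partner of Stat2, differed by 0.10 (SE 0.11, adjusted p = 0.991). Of this list 5 genes had genotypes apart in the higher direction and 4 in the lower (4.81% and 5.23% of all genes). Among the lower were the receptor chain Ifnar2 (-0.18) and the kinases Jak1 (-0.10) and Jak2 (-0.23). None of these 3 passed limma (adjusted p = 0.950 for Jak2). The other receptor chain, Ifnar1 (0.09), was apart in the higher direction, and the kinase Tyk2 (0.09) overlapped. The ubiquitin-like modifier Isg15 was measured by a row shared with Gm9706, which rose by 0.95 (SE 0.12, adjusted p = 0.0243 over all probe sets).

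The interferon genes themselves gave small differences in both directions. Of 9 measured ligands 3 were higher and 6 lower, between -0.11 and 0.16 with a median of -0.04, and 0 passed limma at an adjusted or an unadjusted p under 0.05. Ifne, an epithelial type I interferon, had the smallest p (0.16, SE 0.12, adjusted p = 0.965), then Ifnl2, of type III (-0.11, SE 0.13, adjusted p = 0.991). A further 22 rows were shared by several genes with a listed ligand among them, 18 of these by Ifnz and its near-identical copies, and 0 passed limma over all probe sets at an adjusted or an unadjusted p under 0.05. They ran from -0.23 for the row of Ifnl2 and Ifnl3 (SE 0.11, adjusted p = 0.983) to 0.24, with 6 lower, among them the 3 rows of Ifna genes (-0.14, -0.14 and -0.04). Ifnb1 averaged 5.08 ± 0.16 and 5.04 ± 0.14 (SD, n = 3), below the array medians in both genotypes.

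Of the partners of the oligoadenylates, 4 were read. Akap7, which degrades oligoadenylates, differed by -0.33 (SE 0.15, adjusted p = 0.950 in limma), and Abce1, an ATPase that recycles ribosomes, by 0.15 (SE 0.11, adjusted p = 0.965). The phosphodiesterase Pde12 differed by 0.12 with genotypes apart and Cnp by -0.01. The nucleotidyltransferase Cgas, which shares the synthetase fold and senses DNA, differed by 0.09 (SE 0.13, adjusted p = 0.991), its adaptor Sting1 by -0.04 and the related Mab21l1 by -0.04 (SE 0.11, adjusted p = 0.999). In these 2 lists 0 of 8 genes passed limma at an adjusted or an unadjusted p under 0.05.

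**Figure D5:**
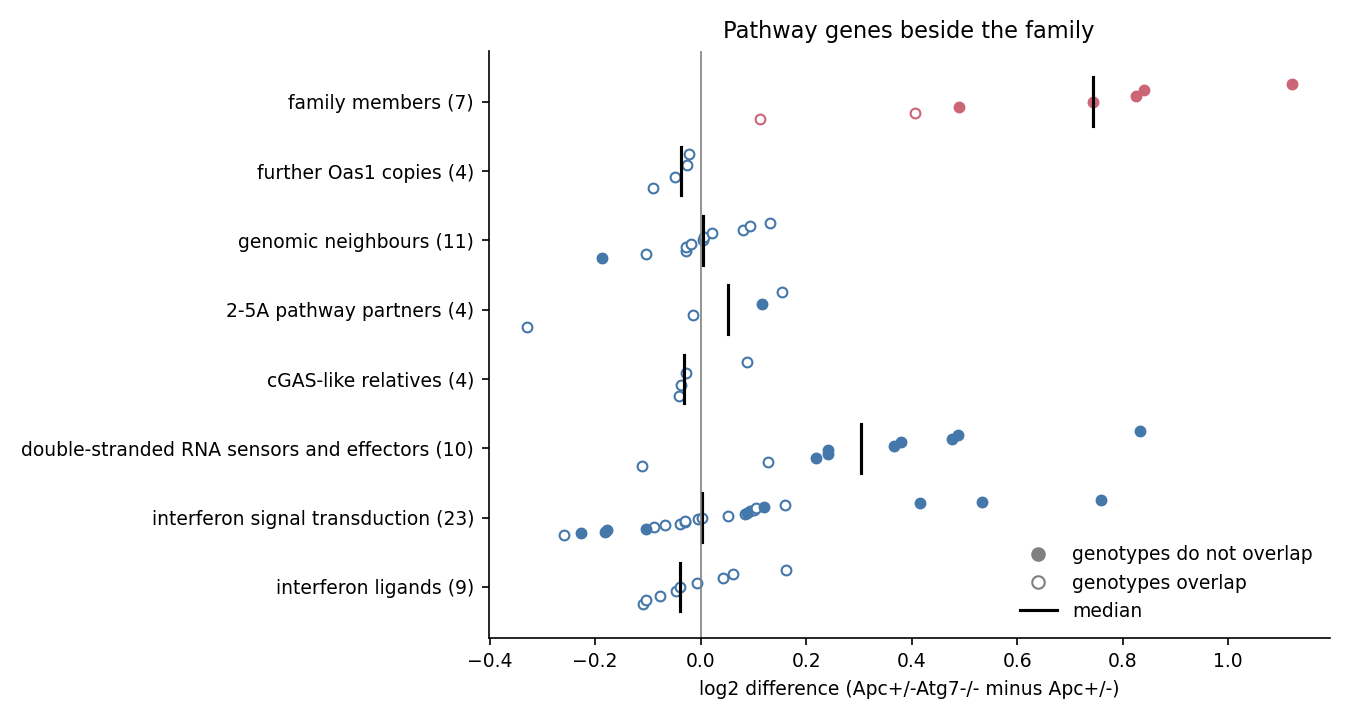
Each point is the log2 difference of 1 gene, grouped by list with the number measured in parentheses, filled where the genotypes do not overlap, and the bar is the median. The family (red) has its median at 0.74 and the sensors and effectors theirs at 0.30, while the medians of the other lists lie between -0.04 and 0.05.

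The Apol9a and Apol9b genes, named after the letters of the windows were seen, were measured by 2 rows that both genes share. One row was higher by 0.65 (SE 0.12) and the other by 0.46 (SE 0.11), both with genotypes apart and neither past limma over all probe sets (adjusted p = 0.152 and 0.559).

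Whole duodenum does not show which cells carried these transcripts, and in such tissue fewer cells of a type and less RNA per cell cannot be told apart. Markers of 8 blood cell types, from leukocytes in general to plasmacytoid dendritic cells, lay slightly lower without Atg7. Of 31 measured markers 2 were higher (43.2% of all genes were), with a median difference of -0.11. Of the 31, 0 passed limma over all genes and 3 had an unadjusted p under 0.05. Their signal had its median at the 48.0th percentile of all genes, and the NK cell markers theirs at the 10.4th. The mean signal of the 31 was 6.86 to 6.97 in Apc+/- arrays and 6.78 to 6.80 in Apc+/-Atg7-/- arrays. Ms4a1, on the B and plasma cell list, read 6.45 in Apc+/- replicate 2 and 4.74 to 4.85 in the other arrays, which raises the mean of that array. The bearing of these markers on the family was not tested. Among the 4 measured markers of plasmacytoid dendritic cells, which are strong producers of interferon, 0 were higher, with Siglech at 6.24 and 6.08 in the 2 genotypes. The 8 epithelial markers had a median difference of -0.02, with 2 higher.

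Markers of the duodenum had differences of the same sign as the family and those of smooth muscle the opposite sign. All 5 duodenal markers had a positive difference, with a median of 0.14, and their mean signal was 7.81 to 7.96 in Apc+/- arrays and 7.997 to 8.11 in Apc+/-Atg7-/- arrays. The largest of these differences was that of Pdx1, a transcription factor of the proximal duodenum (0.46, SE 0.22, adjusted p = 0.950 in limma), while Cck, a hormone of enteroendocrine cells, differed by 0.27 (SE 0.09, adjusted p = 0.841) with genotypes apart. Of 3 smooth muscle markers 0 were higher, with a median of -0.36, and Des, the muscle filament desmin, differed by -0.49 (SE 0.19, adjusted p = 0.923) with genotypes apart. In each of these 2 lists 0 passed limma over all genes and 1 had an unadjusted p under 0.05. Endothelial, fibroblast and pancreatic acinar markers had medians of -0.03, -0.02 and -0.18. The part of these markers in the differences of the family was not tested.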

How the data were processed

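Per the labels' protocols, total RNA was extracted with Trizol and labelled as biotinylated cDNA for Affymetrix whole-transcript arrays. The deposited table holds 1 log2 value per probe set and array, made by the authors with RMA and Partek per the submitters' processing notes, with no settings. The log base was inferred from the range of the values. RMA usually equalises arrays, which removes a shift shared by all transcripts.

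The platform annotation gave 1 symbol to 21789 of 28853 probe sets, several to 1621 and none to 5443. The brightest probe set over all arrays stood for a gene. A two-sided limma model (version 3.58.1, R 4.3.3, lmFit and eBayes, 9.7 degrees of freedom) compared the genotypes over 19938 genes with Benjamini-Hochberg adjustment at 0.05, and rows with several symbols were fitted over all probe sets. Animals are not named in the labels, so a p-value here reflects variation among these samples only, which may be technical. All members are named, with, for each list, genes past the threshold or the 2 of smallest p, and Irf7 and Irf9. Some listed genes are not reported here. Members and lists were chosen with earlier results of these data known. The comparison was also run on simulated data with independent normal noise. Its recovery of changes of the size seen in the family is not reported here. Promoter windows are from RefSeq (250 bases before to 50 after a start). Windows were aligned with Biopython 1.88, and figures drawn with matplotlib 3.10.9. Same-numbered samples deviated from their genotype means with correlations of 0.146, -0.0742 and 0.24, and differently numbered ones with -0.308 to 0.179. With 3 samples in each genotype these values cannot settle whether the numbers pair the samples. The main model held no pairing term. The alternatives are listed in the closing section.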

Additional observations from a re-analysis of the deposited data

How the results depend on the processing

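All 7 members kept a positive difference under every alternative that could be run. These were array weights, a replicate block, centred arrays, renewed quantile normalization, trended and robust moderation or none, 2 filters on dim genes, the mean of probe sets, every probe set and leaving out each array. Only array weights, centred arrays, renewed quantile normalization and leaving out an array could change the difference of a member. The others left each difference as it was, so they could not change its sign. Oas1c had no value under the stricter filter on dim genes. The count of 2 members that rose became 4 under trended and robust moderation (Oas1a, Oas2, Oasl1 and Oasl2) and at an adjusted p of 0.1, 1 at an adjusted p of 0.01 (Oasl1) and 0 without moderation. It ran from 0 (without the male array) to 3 with 1 array left out. With the replicate block it stayed at 2 (Oas1a and Oasl1), whereas 22 genes rose and 22 fell over all genes, from 14 and 8. Those counts over all genes were 18 and 6 under trended and robust moderation, and 18 and 10 at an adjusted p of 0.1. They were 23 and 16 over every probe set, 4 and 4 at an adjusted p of 0.01, and 0 and 0 without moderation. With 1 array left out they ran from 0 to 16 and from 2 to 11. The family median ran from 0.65 to 0.86 with 1 array left out. From 0 pathway genes, 1 rose under quantile normalization and at an adjusted p of 0.1 (Dhx58), 2 under trended and robust moderation (Dhx58 and Usp18) and 0 to 1 with 1 array left out. The difference in response between Oas1a and its shared row turned to -0.033 without Apc+/- replicate 2 and ran up to 0.12 (without Apc+/- replicate 1). A shorter core, GAAA, any 2 bases and GAA, was in the same number of member windows, 4. Where a count moved, the cause was not tested. Scanner files were not used here, so signal over background could not be judged.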
